A study of Drosophila melanogaster with 9 samples.

Results

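Monoamines are small transmitters made from aromatic amino acids, and in the fly brain they set arousal, feeding, locomotion and learning through a small number of widely branching neurons. Dopamine is made from tyrosine by a hydroxylase and a decarboxylase, serotonin from tryptophan by another hydroxylase and the same decarboxylase, and octopamine from tyrosine by way of tyramine. A vesicular transporter loads all of them into vesicles, and transporters of the plasma membrane take dopamine and serotonin back up after release. The genes described here are ple and DAT of dopamine neurons, Trhn and SerT of serotonin neurons, and Tdc2 and Tbh of octopamine neurons. Ddc and Pu serve the synthesis of both dopamine and serotonin. Vmat encodes the shared vesicular transporter, and prt a vesicular transporter related to it. These genes are 10 of the 17421 genes in the table, chosen by role, and each was found by its FlyBase identifier.

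The RNA came from dissected central nervous systems of 1st instar Drosophila melanogaster larvae, with 3 libraries for each of 3 genotypes. Canton-S is a common wild-type strain, elav5 larvae carry a deletion of elav, and elav5/fne larvae carry deletions of elav and of fne. The products of both genes belong to the ELAV/Hu family, which binds RNA in neurons and has roles in splicing and in 3' end choice. The mutant larvae were those that lived to this stage as homozygotes and were picked by a visible marker, and all were raised at 25 °C. The extent of each deletion, the sex of the larvae and the genetic background of the mutants were each not given in the sources used here. The loss of elav and fne cannot be told apart from other differences between these strains and Canton-S.

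Each library read transcripts from their 3' ends and held 15241461 to 18822734 reads assigned to genes. Levels are given as normalised CPM, in which the mean library total is 1000000, and 3 reads corresponded to 0.150 to 0.196. In the nervous system markers, all 14 neuronal genes matched in the table had reads in every genotype, with a summed level of 13022 to 13716 normalised CPM in the Canton-S libraries, against 11075 to 12525 in those of elav5 and 6606 to 8007 in those of elav5/fne. As a check of the labels, elav went from 1643 ± 68.3 normalised CPM (SD, n = 3) in wild-type larvae to 31.2 ± 9.26 in elav5 larvae and 45.3 ± 22.6 in double mutants. fne went from 5041 ± 546 to 4696 ± 219 and 375 ± 129.8 in the same order. Reads of both genes remained in the double mutants, most in replicate 2 (elav 71.3 and fne 522 normalised CPM), and their source was not tested. Muscle and gut genes were uneven among the mutant libraries. The sum of 11 muscle markers was 664 to 832 normalised CPM in the Canton-S libraries, 596 to 6781 for elav5 and 1528 to 7838 in elav5/fne, with the highest values in elav5 replicate 1 and elav5/fne replicate 3. Whether replicates are separate cultures or animals is not stated in the labels, and p-values then cover no more than the spread of these libraries, which may be technical.

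In elav5 larvae the monoamine genes moved in both directions. Ddc and Vmat were lower than in Canton-S, ple and Tbh were higher, and the other 6 did not pass the test. In elav5/fne larvae 9 of the 10 were lower than in Canton-S, by 0.69 (Tdc2) to 3.56 (Vmat) on the log2 scale, and ple was the exception. Changes are log2 fold changes of normalised CPM + 1, tested with limma in 1 fit over all 9 libraries with Benjamini-Hochberg adjustment over the 9384 genes that had a mean of at least 1, and an adjusted p under 0.05 was the threshold. All 10 genes were among those tested. Of all tested genes 8.17% were called higher and 7.04% lower in elav5, against 2 and 2 of the 10. Without overlap between libraries of elav5 and Canton-S, 18.1% were higher and 17.4% lower, against 3 and 3 of the 10. In elav5/fne against Canton-S 25.8% were called higher and 17.5% lower, against 0 and 9 of the 10, and 23.7% were lower without overlap, against 9. The count of 0 higher genes was the same in limma at an unadjusted p under 0.05, in edgeR and in DESeq2. In bulk tissue, fewer cells of a type and less RNA per cell cannot be told apart.

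**Figure D1:**
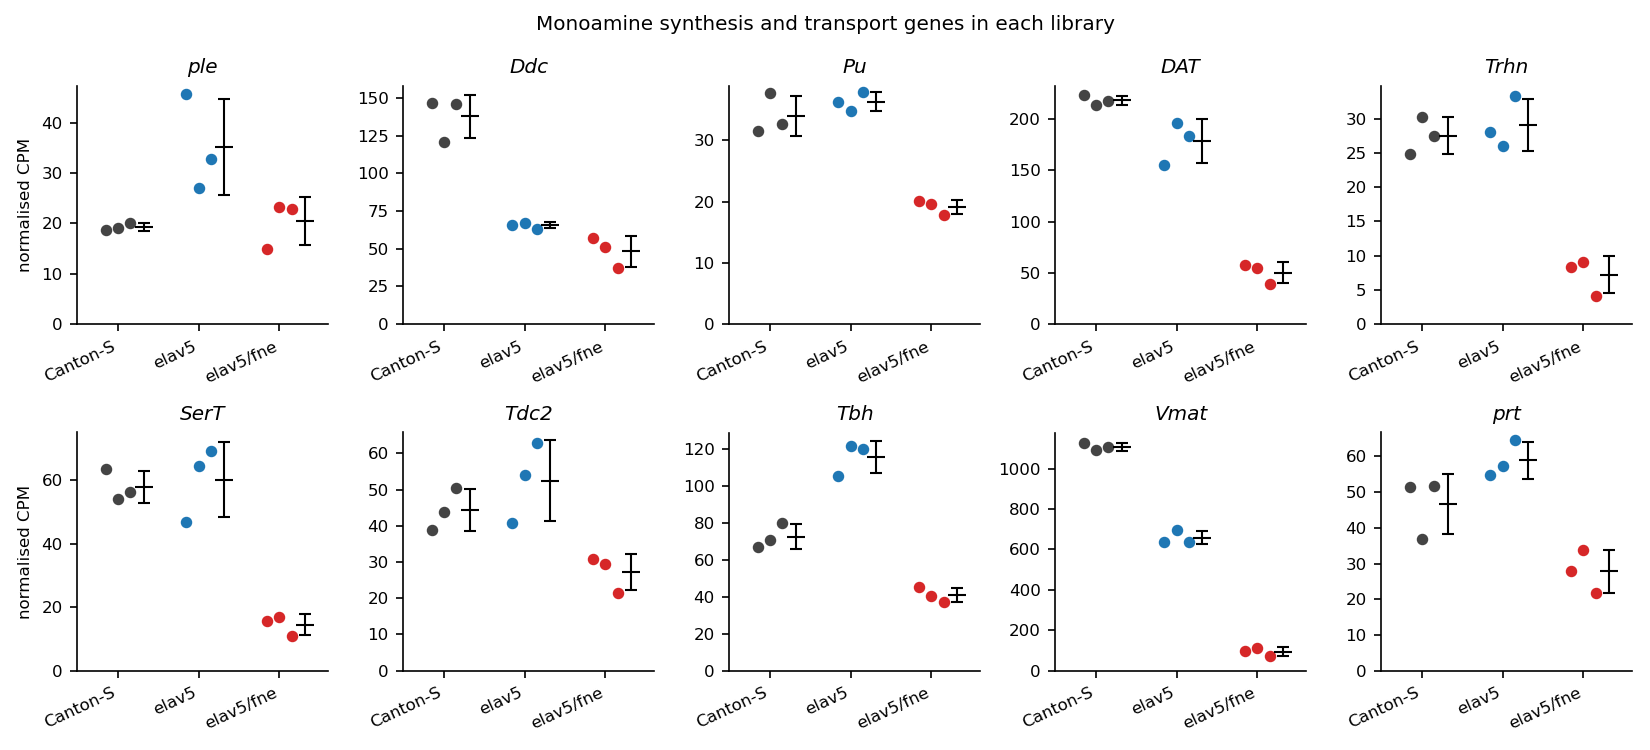
Level of each of the 10 genes in normalised CPM in each library (points; replicates 1, 2 and 3 from left to right within a genotype), with the mean and SD of the 3 libraries beside them. Vmat fell from 1107 to 657 and 94.7 across Canton-S, elav5 and elav5/fne, while ple was highest in elav5.

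ple encodes tyrosine hydroxylase, the enzyme that commits tyrosine to dopamine. Its level was 18.6, 19.1 and 20.1 normalised CPM in Canton-S replicates 1, 2 and 3, 45.7, 27.1 and 32.9 in the elav5 replicates, and 14.96, 23.4 and 23.0 in the elav5/fne replicates. Every elav5 library lay above every other library, and the elav5/fne libraries lay on both sides of Canton-S. The log2 change was 0.81 in elav5 (SE 0.218, limma adjusted p = 0.0359) and 0.05 in elav5/fne (adjusted p = 0.856, 95% interval -0.44 to 0.54). The elav5 call was fragile: it was lost without Canton-S replicate 1 (adjusted p = 0.109), 2 (0.1004) or 3 (0.0794) and without elav5 replicate 1 (log2 0.61, 0.0921) or 3 (0.0622). It was also lost without both elav5 replicate 1 and elav5/fne replicate 3 (log2 0.61, adjusted p = 0.0781), with scaling to the library total (log2 0.66, adjusted p = 0.0632) and with no filter on low genes (adjusted p = 0.0561).

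Outside neurons, ple and Ddc also act in the epidermis, where dopamine is used to harden and darken the cuticle, so cuticle and epidermis markers were set beside them. The summed level of 15 such markers was 64.3, 68.9 and 55.7 normalised CPM in Canton-S, 142, 95.1 and 63.0 in elav5 replicates 1, 2 and 3, and 198, 198 and 258 in the elav5/fne replicates. The library of elav5 replicate 1, with the highest ple level of all libraries, also had the highest sums of cuticle, muscle and gut markers within its genotype. The library of elav5 replicate 3, whose cuticle sum lay within the Canton-S range, had ple at 32.9. The elav5/fne libraries had the highest cuticle sums, and their ple levels lay above Canton-S in 2 libraries and below it in 1. This order of the sums rested on grh, a transcription factor of the epidermis and also of neural stem cells. Without grh, left out after its values were seen, the sums were 13.8, 25.0 and 11.6 in Canton-S, 77.3, 34.99 and 19.3 in the elav5 replicates and 34.7, 48.1 and 101.7 in the elav5/fne replicates, so that the mutants overlapped. A single gene of the list, serp, made up 44.6 of the sum in elav5 replicate 1 and 54.2 in elav5/fne replicate 3. In the Canton-S libraries serp was at 3.95 to 13.5. In Canton-S the cuticle genes Lcp2, Lcp3, Lcp4, TwdlF and Cpr47Ea had no reads, in elav5 Lcp2 and Cpr47Ea had none, and in elav5/fne Cpr47Ea had none. Of the 7 markers of this list that were tested, limma called y, a gene of cuticle pigmentation, higher in elav5. It called y, grh, knk and Fcp3C higher in elav5/fne. There Fcp3C did not pass in edgeR (adjusted p = 0.0994) or DESeq2 (0.0601). DESeq2 also called knk higher in elav5 (adjusted p = 0.0488). The shares called higher over all tested genes were 8.17% in elav5 and 25.8% in elav5/fne. The level of grh itself went from 46.2 ± 3.75 to 56.3 ± 11.3 in elav5 and 156 ± 6.81 in elav5/fne. The part of these tissues in the ple and Ddc levels was not tested.

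**Figure D2:**
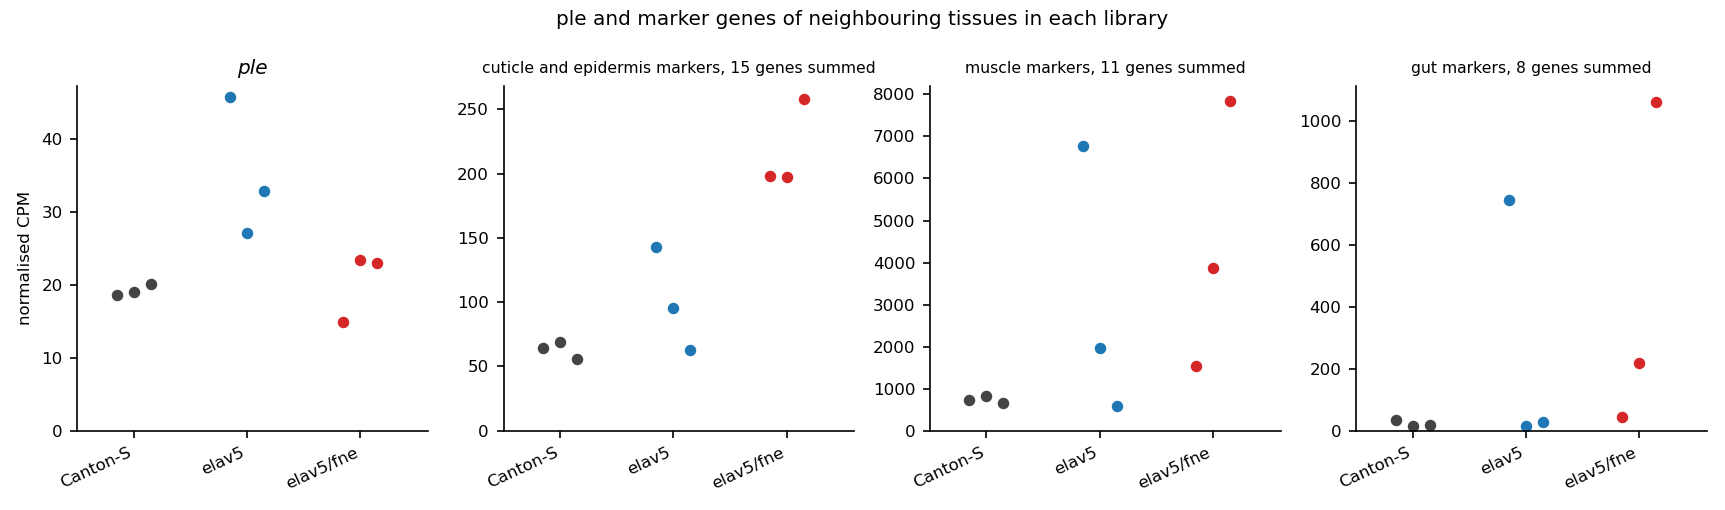
Level of ple and summed levels of cuticle and epidermis, muscle and gut marker genes in normalised CPM; each point is a library, replicates 1, 2 and 3 from left to right within a genotype. The library of elav5 replicate 1 had the highest value of its genotype in all 4 panels, and the highest cuticle sums, in elav5/fne, rested on grh, a gene also of neural stem cells.

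Ddc encodes aromatic L-amino acid decarboxylase, which makes both dopamine and serotonin. It was at 146, 121 and 146 normalised CPM in the Canton-S libraries, at 65.9, 67.3 and 63.4 in elav5 and at 57.0, 51.1 and 36.9 in elav5/fne. The 3 genotypes did not overlap, and the elav5 libraries lay close together. Markers of the ring gland, an endocrine organ attached to the brain, were lower in both mutants too: the sum of 6 was 114 to 170.0 in wild type, 41.8 to 73.6 in elav5 and, in the double mutant, 62.5 to 88.6, and 3 (elav5) and 4 (elav5/fne) of the 5 tested were called lower in limma. Over all tested genes 7.04% were called lower in elav5 and 17.5% in elav5/fne. None of the 6 ring gland markers was without reads throughout a genotype, and their part in the Ddc level was not tested. The log2 change of Ddc was -1.05 in elav5 (SE 0.156, adjusted p = 0.00302) and -1.51 in elav5/fne (adjusted p = 5.98e-05), to 47.6% and 35.1% of the Canton-S mean. Both calls held under all 21 alternative settings.

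Pu encodes GTP cyclohydrolase, the first enzyme of tetrahydrobiopterin, the cofactor of both hydroxylases. It was at 33.9 ± 3.29 normalised CPM in wild type, 36.3 ± 1.56 in elav5 and 19.1 ± 1.18 in elav5/fne. The elav5 libraries overlapped those of Canton-S (log2 0.10, adjusted p = 0.614), and all elav5/fne libraries were lower (log2 -0.79, SE 0.119, adjusted p = 0.000553). DAT, the dopamine transporter of the plasma membrane, was at 223, 214 and 218 in Canton-S, 155, 197 and 184 in elav5 and 57.4, 54.6 and 38.9 in elav5/fne. All 3 elav5 libraries lay below Canton-S without passing the test (log2 -0.29, adjusted p = 0.214). In the double mutant DAT dropped by 2.12 (SE 0.150, adjusted p = 6.94e-06), to 23.0% of Canton-S.

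Trhn encodes the neuronal tryptophan hydroxylase, which commits tryptophan to serotonin. Its level was 24.8, 30.3 and 27.5 normalised CPM in the Canton-S libraries, 28.0, 26.0 and 33.3 in elav5 and 8.34, 9.15 and 4.12 in elav5/fne, the last from 65 to 170 reads per library. SerT, which takes serotonin back up, was at 63.6, 54.0 and 56.2 in Canton-S, 46.9, 64.7 and 69.2 in elav5 and 15.8, 16.9 and 10.97 in elav5/fne. For both genes the elav5 libraries overlapped Canton-S and the elav5/fne libraries lay far below. In elav5 neither passed, with a log2 change of 0.07 for Trhn (adjusted p = 0.859, 95% interval -0.48 to 0.63) and of 0.04 for SerT (adjusted p = 0.904, -0.39 to 0.47). In the double mutant the log2 change was -1.86 for Trhn (SE 0.247, adjusted p = 0.000269) and -1.94 for SerT (SE 0.192, adjusted p = 4.57e-05), to 26.2% and 25.1% of Canton-S.

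Tdc2, the neuronal tyrosine decarboxylase, makes tyramine, and Tbh, tyramine beta-hydroxylase, turns tyramine into octopamine. Tdc2 was at 38.9, 43.7 and 50.6 normalised CPM in the Canton-S libraries, 40.7, 54.1 and 62.8 in elav5 and 30.8, 29.3 and 21.6 in elav5/fne. It did not pass in elav5 (log2 0.22, adjusted p = 0.462) and dropped by 0.69 in elav5/fne (SE 0.193, adjusted p = 0.0162), to 61.3% of Canton-S. That call was lost without Canton-S replicate 3 (log2 -0.60, adjusted p = 0.0620) and without elav5/fne replicate 3 (log2 -0.54, adjusted p = 0.0516). Tbh was at 67.0, 70.6 and 80.0 in Canton-S, 106, 121 and 120 in elav5 and 45.1, 40.2 and 37.3 in elav5/fne, so the genotypes did not overlap and elav5 lay on top. Its log2 change was 0.67 in elav5 (SE 0.116, adjusted p = 0.00582) and -0.81 in elav5/fne (adjusted p = 0.000406), and both calls held under all 21 alternative settings. Among the 10 genes Tbh was thus called in opposite directions in the mutants, which share the Canton-S libraries as controls.

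Vmat, the vesicular monoamine transporter, showed the largest fall among the 10 in elav5/fne, while in elav5 Ddc fell further. It was at 1126, 1090 and 1105 normalised CPM in the Canton-S libraries, 638, 695 and 639 in elav5 and 98.2, 114 and 72.4 in elav5/fne. The Canton-S and the elav5 libraries each lay close together, and those of elav5/fne spread more for their level (94.7 ± 20.9). The genotypes did not overlap. The log2 change of Vmat was -0.75 in elav5 (SE 0.143, adjusted p = 0.00917) and -3.56 in elav5/fne (adjusted p = 5.25e-07), to 59.4% and 8.56% of Canton-S. From the lowest change upward, Vmat ranked 26 among the 9384 tested genes in elav5/fne, against 128 for DAT, 150 for SerT and 173 for Trhn. prt, whose protein is found in the mushroom body, the learning centre of the adult brain, and whose cargo is not established, was at 46.7 ± 8.41 in Canton-S, 58.9 ± 5.06 in elav5 and, in the double mutant, 27.8 ± 6.08. It did not pass in elav5 (log2 0.34, adjusted p = 0.241) and dropped by 0.73 in elav5/fne (SE 0.185, adjusted p = 0.0101).

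**Figure D3:**
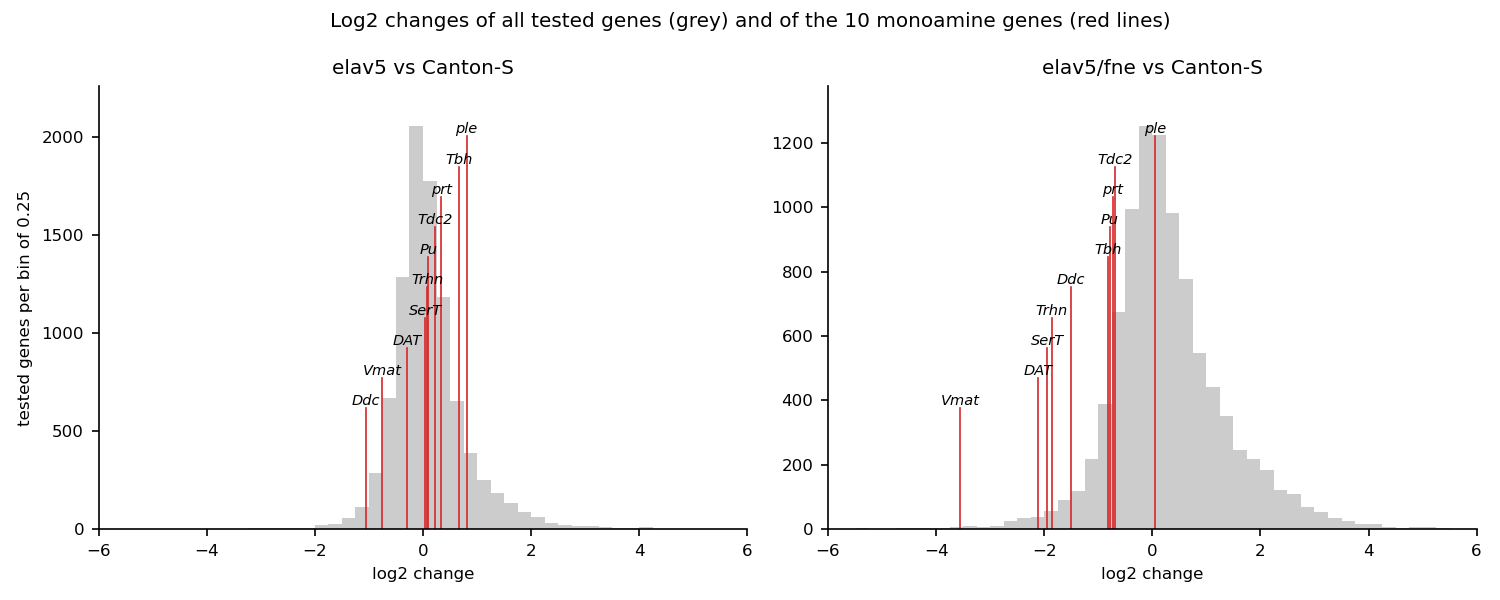
Histogram of log2 changes of the 9384 tested genes in bins of 0.25, with a red line for each of the 10 monoamine genes (line height carries no value); 3 genes in each panel lie beyond 6 in size and are not drawn. In elav5 the genes lie on both sides of 0, and in elav5/fne all but ple lie below it.

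By size of change in elav5/fne the genes fell into a wide range. Vmat kept 8.56% of the Canton-S mean, DAT, SerT and Trhn 23.0% to 26.2%, Ddc 35.1%, and Tdc2, Tbh, Pu and prt 56.3% to 61.3%, while ple was at 105.9%. The median log2 change of the 10 was -1.16 against 0.15 for all tested genes. With TMM scaling the median of all genes was 0.02, and ple was the only gene of the 10 whose direction in elav5/fne changed under other scalings (log2 -0.081 with TMM, and not past the threshold under any). In elav5 the median of the 10 was 0.09 against 0.02 for all genes. Scaling to the library total moved the latter to -0.12 and turned the direction of Pu, SerT and Trhn (log2 -0.056, -0.11 and -0.077), none of which passed under either scaling.

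The comparison of elav5/fne with elav5 sets the double mutant against larvae in which elav was already lost. The loss of fne cannot be told apart from other differences between these mutant strains, whose genetic background and sex were not given. All 10 genes were lower in every elav5/fne library than in every elav5 library, and 9 passed the test, where 12.3% of tested genes were called lower and 17.0% had no overlap in that direction. The log2 change was -2.80 for Vmat (limma adjusted p = 2.47e-06), -1.98 for SerT (6.65e-05), -1.93 for Trhn (0.000346), -1.82 for DAT (2.55e-05) and -1.48 for Tbh (1.99e-05). It was -1.07 for prt, -0.92 for Tdc2 and -0.89 for Pu. For ple it was -0.75 (adjusted p = 0.0274), and this call was lost without elav5 replicate 1 (log2 -0.55, adjusted p = 0.0685), elav5 replicate 3 (-0.78, 0.0524) or elav5/fne replicate 1 (-0.55, 0.0888). It was also lost without elav5 replicate 1 together with elav5/fne replicate 3 (-0.65, 0.0559), the libraries with the highest muscle and gut sums. Ddc was the gene that did not pass (log2 -0.45, adjusted p = 0.0527, 95% interval -0.80 to -0.10). It passed without elav5/fne replicate 1 (log2 -0.58, adjusted p = 0.0279), with TMM scaling (log2 -0.58, adjusted p = 0.0196) and in edgeR and DESeq2 (adjusted p = 0.0293 and 0.00538). Most of the Ddc change was therefore already present in elav5, and most of the DAT, SerT, Trhn and Vmat change was not.

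**Figure D4:**
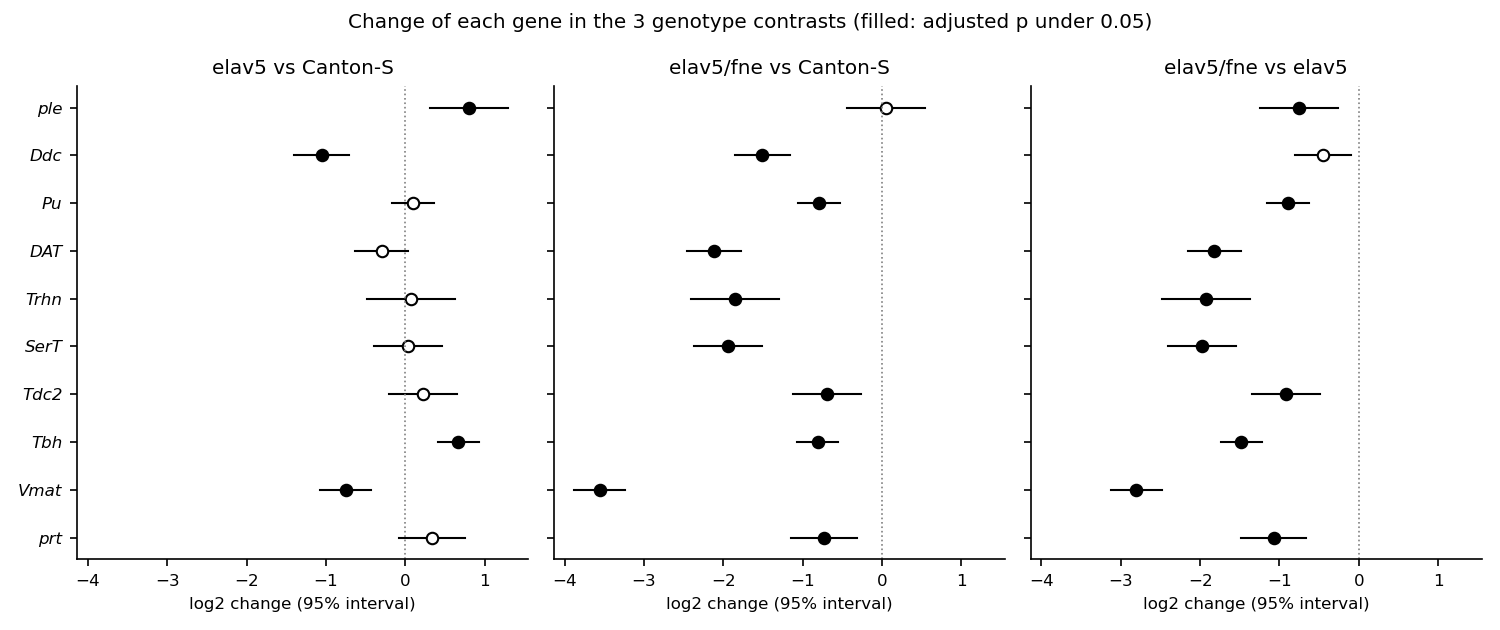
Log2 change of each gene in the 3 genotype contrasts, with its 95% interval from the limma fit; filled points had an adjusted p under 0.05. Of the steps from Canton-S to elav5 and from elav5 to elav5/fne, Ddc has its larger change in the first, and Vmat, DAT, SerT and Trhn have theirs in the second.

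Ratios of genes that share at least some neurons were formed within each library. Scaling between libraries therefore has no part in them beyond the pseudocount. Ddc serves dopamine and serotonin neurons, and Vmat octopamine neurons as well, so ratios with these genes mix neuron types. For 6 ratios in 3 contrasts, 18 exact permutation tests (2-sided) were made, in which 3 against 3 libraries cannot go below p = 0.1, so none could pass. The smallest adjusted value was 0.164. The log2 ratio of Trhn to SerT was -1.05 ± 0.256 in Canton-S, -1.01 ± 0.282 in elav5 and, in the double mutant, -0.96 ± 0.226, with differences of at most 0.08 between genotypes and overlapping libraries (exact p = 0.7 to 0.9). These differences were smaller than the SD of any genotype. The test could not have passed for a shift of any size, so it does not show that the ratio was unchanged. The ratio of ple to DAT was -3.44 ± 0.0718, -2.33 ± 0.546 and -1.27 ± 0.570 in the same order, and both mutants lay above Canton-S without overlap (exact p = 0.1, the smallest possible). The ratio of ple to Ddc was likewise higher in both mutants, at -2.77 ± 0.154, -0.91 ± 0.382 and -1.21 ± 0.607.

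The ratio of Vmat to Ddc was 3.00 ± 0.136 in Canton-S, 3.31 ± 0.0483 in elav5 and, in the double mutant, 0.96 ± 0.183. Relative to the decarboxylase, the log2 ratio differed from Canton-S by 0.30 in elav5 and by -2.05 in elav5/fne, without overlap in either case (exact p = 0.1). The ratio of Trhn to Ddc was 1.13 higher in elav5 than in Canton-S, without overlap, and differed by -0.35 in elav5/fne, with overlap (exact p = 0.3). The ratio of Tdc2 to Tbh was -0.70 ± 0.0621, -1.15 ± 0.215 and -0.58 ± 0.165, lower in elav5 than in either other genotype without overlap.

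**Figure D5:**
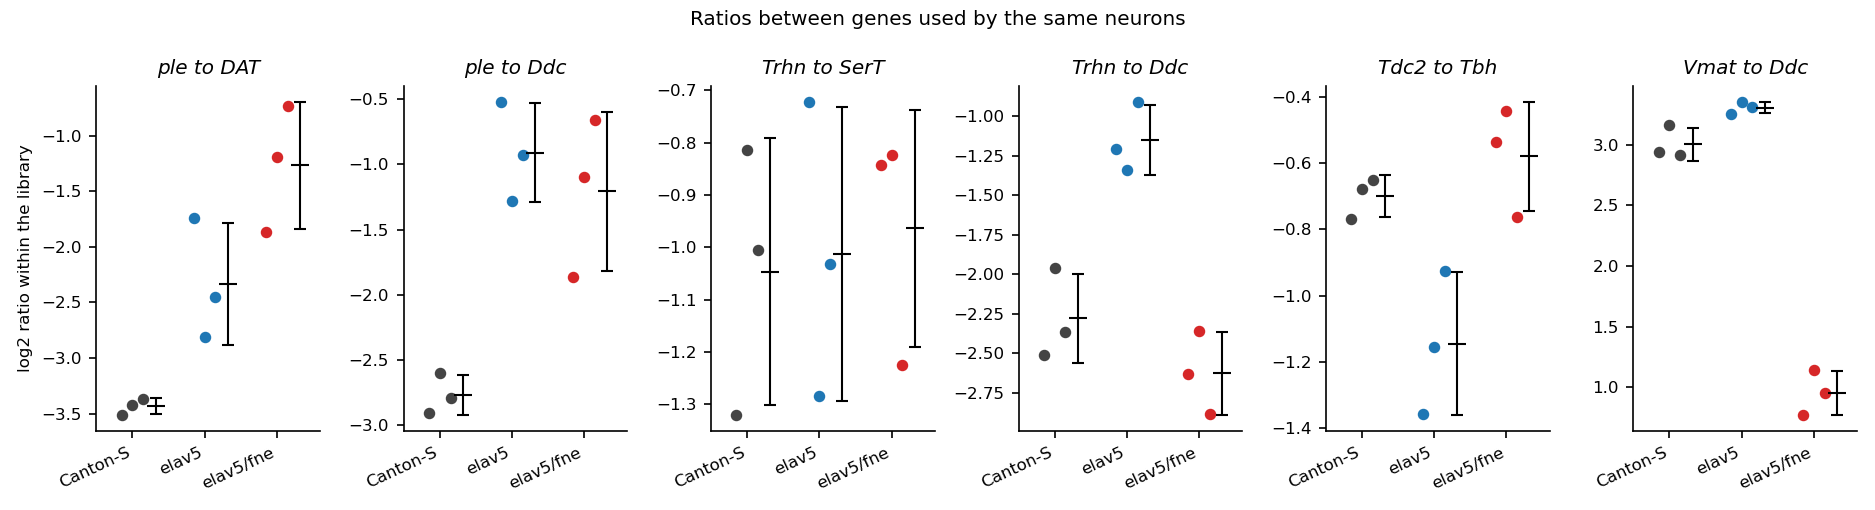
Log2 ratio of the normalised CPM + 1 of gene pairs within each library (points), with the mean and SD of the 3 libraries of a genotype; each panel has its own vertical axis. Trhn to SerT overlaps among all genotypes, and Vmat to Ddc is about 2 lower on the log2 scale in elav5/fne than in the other genotypes.

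Across the 9 libraries, which share the 3 genotypes, 8 of the genes followed each other: over the 28 pairs without ple and Ddc, Pearson's r of the log2 levels had a median of 0.91 and a range of 0.78 to 0.99. The highest was that of Vmat with DAT. Pairs with ple had r between -0.29 and 0.60, and pairs of Ddc with the other 8 between 0.35 and 0.84. Of 5983 other genes averaging at least 10 normalised CPM, 550 had an r over 0.9 with Vmat, 470 with Trhn, 174 with Tdc2 and 2 with ple. The genes most like Vmat were OtopLa (r = 0.998), Sap47 (0.996), which encodes a synapse-associated protein, and ChAT (0.996), which makes acetylcholine. Those most like Trhn were Gad1 (0.992), which makes GABA, the octopamine receptor gene Octbeta3R (0.991) and Btk (0.989). Those most like Tdc2 were CD98hc, CG9109 and CG13108 (0.984, 0.977 and 0.967), and those most like ple were CG9399, Amph and SdhB (0.922, 0.900 and 0.898). These are descriptions of 9 libraries of 3 genotypes.

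Other genes of monoamine metabolism mostly did not pass. Of 9 tested, 1 was lower in elav5, and 2 were lower and 1 was higher in elav5/fne than in Canton-S. Over all tested genes 7.04% were called lower in elav5, and 17.5% lower and 25.8% higher in elav5/fne. pr, which makes the same pterin cofactor as Pu a step later, fell from 17.6 ± 0.977 normalised CPM to 7.91 ± 0.974 in elav5 (log2 -1.07, adjusted p = 0.00396) and to 11.9 ± 1.98 in elav5/fne (-0.54, 0.0266). Hdc, which makes histamine, fell from 9.28 ± 0.308 to 1.69 ± 0.161 in elav5/fne (log2 -1.94, adjusted p = 3.47e-05). Catsup, known as a negative regulator of tyrosine hydroxylase and as a zinc transporter, rose from 13.7 ± 1.01 to 31.2 ± 2.39 in elav5/fne (log2 1.13, adjusted p = 0.000119). Pcd, Dhpr and Sptr, also of pterin metabolism, and e and Tdc1 did not pass against Canton-S in limma in either mutant. Pcd was called lower in elav5/fne by edgeR (log2 -0.49, adjusted p = 0.0443) and DESeq2 (-0.47, 0.0407), against -0.34 (0.133) in limma. Hn, which hydroxylates phenylalanine, was at 0.180 to 2.80 in Canton-S, and at 23.5 and 27.4 in elav5 replicate 1 and elav5/fne replicate 3, the libraries with the highest muscle and gut sums, and did not pass in either mutant.

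Most receptor genes for these transmitters were lower in elav5/fne as well. Of 17 dopamine, serotonin, octopamine and tyramine receptor genes tested, 13 were lower and 1 higher in elav5/fne than in Canton-S, and 2 were higher in elav5. The shares over all tested genes were 17.5% lower and 25.8% higher in elav5/fne, and 8.17% higher in elav5. DopEcR fell from 350 ± 10.5 to 181 ± 13.4 normalised CPM in elav5/fne (log2 -0.95, adjusted p = 2.83e-05), Octbeta3R from 157 ± 6.15 to 62.8 ± 12.0 (-1.33), Dop1R1 from 386 ± 17.2 to 138 ± 4.196 (-1.48), and 5-HT2B from 20.0 ± 1.91 to 4.18 ± 0.598 (-2.02). 5-HT2A was the receptor that rose, from 35.5 ± 2.36 to 75.4 ± 10.98 (log2 1.06, adjusted p = 0.000340), and was named after its values were seen. 5-HT1A and Dop2R were higher in elav5 (log2 0.45 and 0.48, adjusted p = 0.0372 and 0.0420) and lower in elav5/fne (-0.45 and -0.42, adjusted p = 0.0147 and 0.0309).

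Genes of other transmitters and of neurons in general also fell in elav5/fne. For the counts below, the shares over all tested genes were 17.5% lower and 25.8% higher in elav5/fne, and 7.04% and 8.17% in elav5. Of 8 genes for acetylcholine, GABA and glutamate synthesis and transport, 7 were lower in elav5/fne (median log2 -0.85) and 1, the choline transporter gene ChT, in elav5. ChAT fell from 527 ± 21.6 to 156 ± 20.9 normalised CPM in elav5/fne (log2 -1.76), VGAT from 16.9 ± 2.34 to 2.69 ± 1.20 (-2.33) and VAChT from 320 ± 17.5 to 186 ± 17.4 (-0.79). Of 14 neuron markers 13 were lower in elav5/fne (median -0.76) and 3 in elav5. Of 6 glia markers 1 was higher and 0 lower in elav5/fne (median 0.05), and 1 was higher and 1 lower in elav5. For elav5/fne the count of 0 was the same in limma at an unadjusted p under 0.05 and in edgeR, while DESeq2 called 1 lower. In elav5 edgeR called 0 glia markers lower. All 6 neuroblast markers were higher in elav5/fne, and their sum went from 131 to 147 in Canton-S to 578 to 802. Among 9 transcription factors known to act in serotonin or dopamine neuron specification, 3 were higher in elav5/fne and 1 lower, and 0 passed in elav5 in limma (2 had an unadjusted p under 0.05, edgeR called 0 and DESeq2 1). The median log2 change of these 9 in elav5/fne was 0.16, against 0.15 for all tested genes. eg, which specifies serotonin neurons, rose from 0.408 ± 0.0522 to 3.02 ± 1.12 normalised CPM (log2 1.48) and hkb from 12.2 ± 1.70 to 22.6 ± 3.20 (0.84). l(1)sc, a proneural gene, rose from 0.715 ± 0.184 to 6.89 ± 0.979 (2.20), and zfh2 fell from 290 ± 4.97 to 243 ± 16.4 (-0.26). eg, hkb and l(1)sc are also expressed in neuroblasts.

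In the annotation (BDGP6.54, dm6 coordinates) 8 of the 10 genes have a single 3' end. Vmat (chromosome 2R, 13513132 to 13534251, minus strand) has 3 annotated 3' ends with 3' UTRs of 81 to 4936 bases, and ple (chromosome 3L, 6713356 to 6719525, minus strand) has 2, with 932 to 1614 bases. The table holds 1 value per gene, so the use of these ends was not analysed here. Exons of 3 of the genes overlap those of a neighbour on the other strand, and use of the strand in counting was not stated. The neighbour CG10561 of Ddc (chromosome 2L, 19116483 to 19120306) was at 4.69 to 8.68 normalised CPM over the 9 libraries. CG13330, beside Vmat, had at most 4 reads in any library. CG13912, which overlaps Trhn (chromosome 3L, 1190384 to 1193173), had 1.02 ± 1.17 normalised CPM in wild type and 5.22 ± 1.74 in elav5/fne, where Trhn was at 7.20 ± 2.70. The part of such shared reads in the levels was not tested.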

How the data were processed

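Per the labels, 40 ng of total RNA went into the Lexogen QuantSeq REV kit, and dm6 is the build named in the submitters' processing notes. The aligner, the counter and its strand option were each not given in the sources used here. The authors deposited a signal, whole read numbers per gene divided by a size factor of the library: 100% of nonzero values were whole multiples of their library's step within 0.1. The table was scaled to a mean library total of 1000000. Of 17421 identifiers 17251 matched a symbol.

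Genes with a mean of at least 1 were tested with limma 3.58.1 (trend, pseudocount 1). Alternatives were pseudocounts 0.25 and 5, other filters and scalings, fits over the genotypes compared alone, the quasi-likelihood test of edgeR 4.0.16 and DESeq2 1.42.0, both on the recovered whole reads, the replicate number as a block, and libraries left out. The limma fit was tested on simulated counts with planted increases in elav5/fne against Canton-S.

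The 10 genes and the 13 other lists were chosen by role with earlier results of these data known. Of 135 list entries 3 (AANAT1, para and stw) had no match. Named were all 10 genes, up to 4 called genes of a list by smallest p, and the 3 genes most correlated with ple, Trhn, Tdc2 and Vmat. Intervals and floors cover counting error or library spread only. R 4.3.3, Python 3.11.15 and scipy 1.17.1 were used.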

Additional observations from a re-analysis of the deposited data

How the results depend on the processing

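Over 21 alternative settings, the changes of Ddc, Vmat and Tbh in elav5, and of all called genes but Tdc2 in elav5/fne, kept their direction and stayed past the threshold. In elav5, 2 monoamine genes were lower under every setting, and the count of higher genes went from 2 to 1, with ple lost, with no filter, with scaling to the library total, with the replicate block, and without the pair elav5 replicate 1 and elav5/fne replicate 3, and was 1 to 2 with 1 library left out. Directions that turned were of values that did not pass. In elav5 these were Pu, SerT and Trhn with scaling to the library total (log2 -0.056, -0.11 and -0.077), SerT with 1 library left out (-0.068 to 0.21) and Trhn likewise (-0.024 to 0.15). In elav5/fne it was ple with TMM (-0.081), median of ratios (-0.060) and library total scaling (-0.013), in edgeR (-0.057) and DESeq2 (-0.033), without that pair (-0.040), and with 1 library left out (-0.052 to 0.25).

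Over all genes, elav5 gave 1428 calls, 909 with the replicate block, 2148 in DESeq2 and 707 to 1539 with 1 library left out (707 without Canton-S replicate 1, 732 without replicate 2). Same-numbered libraries of different genotypes had deviations correlated at -0.70 to 0.20, and 1 of 9 libraries correlated best with its own number, so the numbers were not taken as pairs. The block also ended the call of ple in elav5/fne against elav5 (adjusted p = 0.0646), as did a fit of these genotypes alone (0.0712). The ratio of Trhn to SerT turned sign with a pseudocount of 0.25 in elav5/fne against elav5 (-0.012) and without the pair named above in elav5 (-0.11). With 1 library left out it was -0.11 to 0.17 in elav5, -0.054 to 0.21 in elav5/fne and -0.087 to 0.19 between the mutants, and the ratio of ple to Ddc between the mutants was -0.57 to 0.030. The cause of these changes was not tested. Depth limits Trhn most, with 65 reads in its lowest library.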
